A study of Mus musculus with 6 samples.

Results

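The GATA factors are zinc finger proteins that bind the letters GATA in DNA and set blood and endoderm cell fates, and Zfpm1 (also called FOG1) is a multi-zinc-finger cofactor that binds GATA proteins. Of this group, Gata2, Gata3, Gata4 and Zfpm1 were the 4 genes with a window listed in a deposited comparison of DNA methylation. The members were chosen by their listed methylation differences: they are the windows of the authors' 3 tables whose nearest start site belongs to one of these genes, 6 windows of 2135 in all and 4 genes of 1223. Gata3 had 3 windows, and Gata2, Gata4 and Zfpm1 had 1 each. Because the listed differences chose the members, those differences are given as a description with no test.

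The study used mouse bone marrow cells, strain labelled C57BL6, immortalised with HoxA9, a homeobox factor that keeps myeloid progenitors self-renewing, and carried in irradiated recipient mice. In every group the cells carry HoxA9, and GFP-positive cells were sorted from bone marrow. Week 4 is given for all 6 libraries. IDH1wt cells carried pSF91-IDH1wt-IRES-EGFP (2 libraries) and IDH1mut cells carried pSF91-IDH1mut-IRES-GFP, a mutant that the tables call R132C (2 libraries). R-2HG cells carried an empty vector in mice that received the metabolite R-2HG, 1 mg daily over 4 weeks (2 libraries), so both the vector and the treatment set them apart from IDH1wt cells. Mutant IDH1 makes R-2-hydroxyglutarate, which competes with 2-oxoglutarate at TET enzymes, the oxidases that start the removal of DNA methylation.

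Reduced representation bisulfite sequencing (RRBS) cuts DNA with MspI at CCGG and reads methylation in the short fragments between those sites. Each listed value is the authors' difference in percent methylation between 2 groups over a window of 500 bp, so a value of 40 means 40 percentage points and not a fold. The windows start 250 bp apart, and neighbours share 250 bp. The tables hold windows with a difference of at least 25 points and a q under 0.01, and a window can be absent because it was under that threshold or because it was not tested. No value per library, group mean, replicate error or read depth was analysed here, and nothing in the labels tells whether a group's 2 libraries are from separate mice, so no comparison below has a replicate check. The tables do not say which group was subtracted. Each value is read here as the first-named group minus the second, in the comparisons as worded in this text. The deposited sign of R-2HG against IDH1wt was reversed for this, because its order of subtraction is opposite to that of the other 2 comparisons. If the authors subtracted the other way round in all of them, gains and losses change places throughout. No expression was measured, so the cell type was not checked against its markers.

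GATA2 is needed to maintain blood stem and progenitor cells, and GATA3 directs T helper cell fate and early T cell development. GATA4 acts mainly in heart, gut and gonad, and Zfpm1 is the partner that GATA1 needs to make red cells and platelets. DNA methylation at a start site often goes with a silent gene, but whether these genes were silent here was not measured.

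MspI fragments begin and end at CCGG, so the start regions of Gata3 and Gata2, the members known best as regulators of blood cells, are shown with each CCGG in capitals. They are RefSeq start regions of the build GRCm38.p6, from 250 bases before to 50 after a start, and the windows are on mm9, so no position can be carried from one to the other. The sequences are written 5′ to 3′ on the gene's strand.
Gata3, chr2:9878551-9878850, minus strand: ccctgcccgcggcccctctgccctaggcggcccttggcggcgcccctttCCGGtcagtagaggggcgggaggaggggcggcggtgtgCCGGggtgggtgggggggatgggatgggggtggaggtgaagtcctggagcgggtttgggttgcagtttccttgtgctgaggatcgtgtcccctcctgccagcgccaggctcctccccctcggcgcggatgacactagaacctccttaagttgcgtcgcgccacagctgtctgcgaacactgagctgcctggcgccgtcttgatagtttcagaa
Gata2, chr6:88193641-88193940, plus strand: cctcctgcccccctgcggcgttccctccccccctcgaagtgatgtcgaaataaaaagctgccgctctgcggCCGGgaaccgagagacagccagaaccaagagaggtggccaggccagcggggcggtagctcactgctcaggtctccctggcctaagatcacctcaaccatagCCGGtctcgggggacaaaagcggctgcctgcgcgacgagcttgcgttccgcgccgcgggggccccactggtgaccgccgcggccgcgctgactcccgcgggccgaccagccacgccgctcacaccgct
Gata2, chr6:88198414-88198713, plus strand: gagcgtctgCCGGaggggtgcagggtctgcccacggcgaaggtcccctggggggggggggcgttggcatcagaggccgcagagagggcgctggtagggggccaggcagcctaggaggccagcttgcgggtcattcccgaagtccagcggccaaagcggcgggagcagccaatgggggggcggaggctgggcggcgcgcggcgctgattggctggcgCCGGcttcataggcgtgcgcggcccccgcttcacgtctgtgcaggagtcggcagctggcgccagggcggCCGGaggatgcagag
The Gata3 start region held 22 CpGs and 2 CCGG sites, and the 2 Gata2 start regions held 32 and 29 CpGs with 2 and 3 CCGG sites. Zfpm1, whose start region is not printed, had 37 CpGs and 3 CCGG sites. Over all 32851 start regions in that table the median was 7 CpGs, and 52.8% held a CCGG. Spacing was counted from the start of 1 CCGG site to the start of the next. A spacing of 40 to 220 bp, the insert range that the labels' protocols give, occurred 0 times in the Gata3 region. It occurred 1 and 2 times in the Gata2 regions and 2 times in the Zfpm1 region, and at least 1 time in 26.7% of all start regions. The 2 Gata3 sites lay just under 40 bp apart, and spacing is not exactly insert length. The 0 therefore does not show that the Gata3 region gives no fragment. The letters that GATA factors are known to bind, GATA with an A or T before it and an A or G after it, were searched on both strands. They occurred 1 time in the Gata3 region and 0 times in the Gata2 and Zfpm1 regions, and 29.8% of all start regions held them. By symbol 3 of the 4 genes, all but Gata4, matched a start region. None of the listed windows of the 4 genes lay in a promoter, taken as -2000 to 500 bp of the start site. Of all listed windows, 18.1% did for IDH1mut against IDH1wt and 19.1% for R-2HG against IDH1mut.

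IDH1mut cells differed from IDH1wt cells at all 6 windows, with higher methylation at Gata2, Gata3 and Zfpm1 and lower methylation at Gata4. This made 5 gains and 1 loss, where 69.3% of all 1493 windows listed in that comparison were gains. The gains of the whole list had a median of 30.6 points and the losses of -28.9 points. Since these values chose the members, the count is not read as a result about them.

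Gata3 had the largest difference of the 4 genes for IDH1mut against IDH1wt. In the authors' deposited table its 3 windows gained 33.3 points at 1228 bp, 47.0 points at 1478 bp and 48.8 points at 1728 bp downstream of the start site of transcript NM_008091 (mm9, chr2:9798001-9799000, gene on the minus strand). Distances run from the nearest edge of a window, so the gain was larger in the windows farther from the start site. The first and the last window touch without overlap and share no base, so both 500 bp stretches passed 25 points separately, while the middle window takes 250 bp from each. They ranked 383rd, 76th and 59th by size among 1035 gains. No other listed window lay within 1 Mb of them in any of the 3 tables. Whether they are exonic or intronic is not given, since no mm9 annotation was used here.

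Gata2 gained 41.6 points in 1 window at -46158 bp, upstream of the start site of NM_008090 (mm9, chr6:88102001-88102500, gene on the plus strand) in the authors' deposited table. This difference was larger than 86.7% of the gains listed for IDH1mut. The windows on either side, which share 250 bp with it, were not listed, and 30.7% of the windows of that table stood alone in this way. In the RefSeq annotation of GRCm38.p6 the protein-coding neighbours of Gata2 are Rpn1, an oligosaccharyltransferase subunit, and Dnajb8, a chaperone gene. Gm38856, which is not protein-coding, starts between Rpn1 and Gata2. The name Gata2 thus says which start site was nearest in the authors' annotation, not that the window acts on Gata2.

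Zfpm1 gained 31.7 points in 1 window at -43541 bp, upstream of the start site of NM_009569 (mm9, chr8:124762001-124762500, gene on the plus strand) in the authors' deposited table. This was the smallest difference among the 6 windows and close to the median gain of the table, ranking 442nd of 1035. Its neighbouring protein-coding genes in the GRCm38.p6 annotation are Zfp469, a zinc finger gene, and Trhr2, a receptor gene for thyrotropin-releasing hormone. Gm39269, which is not protein-coding, starts between Zfp469 and Zfpm1, and Gm46056, also not protein-coding, starts between Zfpm1 and Trhr2.

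Gata4 was the loss. In the authors' deposited table IDH1mut was lower than IDH1wt by a difference of -36.8 points in 1 window at -27155 bp, upstream of the start site of NM_008092 (mm9, chr14:63891251-63891750, gene on the minus strand). It ranked 73rd by size of 458 losses. Its protein-coding neighbours in the GRCm38.p6 annotation are Neil2, a DNA glycosylase gene, and, on the upstream side, Blk, a B cell kinase gene; Gm4151, which is not protein-coding, starts between Gata4 and Blk. The Gata2, Gata4 and Zfpm1 windows therefore lay far upstream of a start site, though within 50 kb, and the Gata3 windows just downstream of one. The authors gave a p and a q of 0 to each of the 6 windows, as they did a p of 0 to 70.9% of the list.

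**Figure D1:**
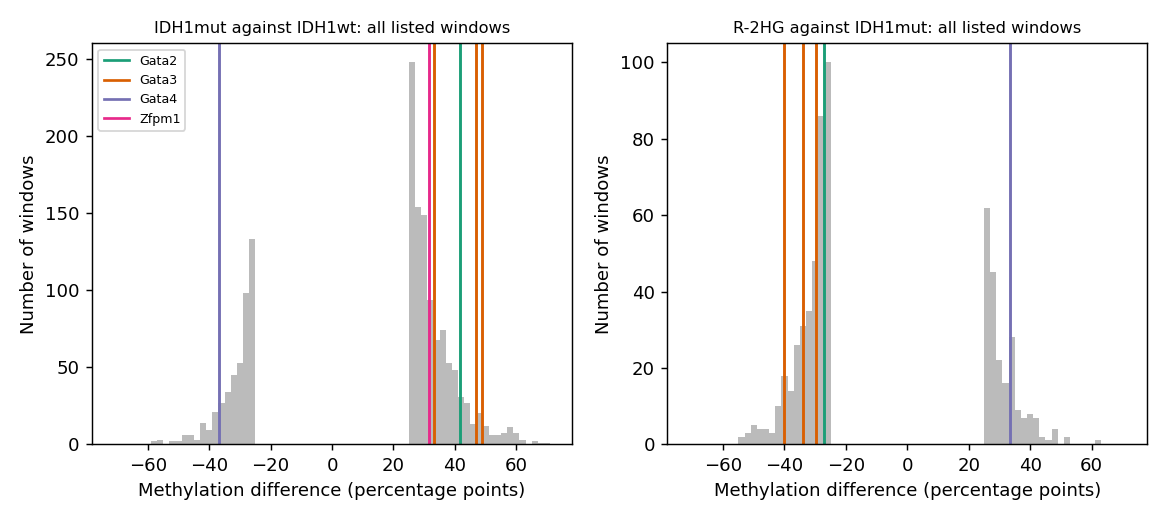
Histograms of all listed methylation differences in percentage points, by number of windows, for IDH1mut against IDH1wt (left) and R-2HG against IDH1mut (right); coloured lines mark the windows of each gene. Gata3 reaches 48.8 points on the left and -40.3 points on the right, and nothing lies between -25 and 25 because the tables hold no smaller differences.

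Set against IDH1mut, R-2HG cells were listed at 5 of these windows, and Zfpm1 was not listed. The differences ran the other way from those of IDH1mut against IDH1wt: Gata2 and Gata3 were lower in R-2HG cells and Gata4 was higher. That made 4 losses and 1 gain, where 64.5% of the 603 windows listed were losses. The comparison uses the same IDH1mut libraries as the one before, so the opposite signs are not independent of it. They also go with the listing: 248 windows were in these 2 tables and not in that of R-2HG against IDH1wt. All 248 had opposite signs in the 2 tables, since a remaining difference under 25 points allows no other. The sign order was chosen partly because it left no such window at 25 points or more. The opposite signs are therefore not particular to these genes.

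In the authors' deposited table, R-2HG cells differed from IDH1mut cells by -29.6, -40.3 and -34.0 points at the Gata3 windows of 1228, 1478 and 1728 bp. The middle window was the lowest, and it ranked 36th by size of 389 losses. Against IDH1wt the largest difference was instead at the window farthest from the start site. At Gata2 the difference was -27.2 points in the authors' deposited table, the value nearest to the threshold of 25 points among all the listed values of the 4 genes. At Gata4 R-2HG cells were higher by 33.4 points in the authors' deposited table, ranking 65th of 214 gains. The authors' p and q were 0 at the 5 windows, and their p was 0 for 81.9% of this list.

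In the table of R-2HG against IDH1wt none of the 4 genes was listed, where 1.64% of the 21900 protein-coding RefSeq symbols had a listed window. For 3 groups the 3 differences add up, so the listed pair gives the remaining one at 5 windows. By subtraction R-2HG minus IDH1wt was 14.4 points at Gata2, 3.64, 6.71 and 14.8 points at the Gata3 windows from the nearest to the farthest, and -3.40 points at Gata4. That they are under 25 points goes with their absence from that table, as at 248 of 248 such windows, but absence alone does not show it. The sign order was itself chosen partly because it left no such window at 25 points or more. The values by subtraction carry no error and no test. As a share of the IDH1mut difference at the same window they came to 34.6% at Gata2, 11.0%, 14.3% and 30.3% at Gata3 and 9.22% at Gata4. Both sets of differences from IDH1wt share its 2 libraries.

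Over those 248 windows the absolute remaining difference had a median of 4.74 points, with quartiles of 2.41 and 9.49 points. The values of Gata2 and of the farthest Gata3 window lay above the upper quartile, and those of Gata4 and of the nearest Gata3 window below the median. Zfpm1 was listed in 1 table, so no subtraction can be made. If its window was tested in the other 2 comparisons and stayed under 25 points in both, R-2HG minus IDH1wt lay between 6.70 and 25 points there.

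**Figure D2:**
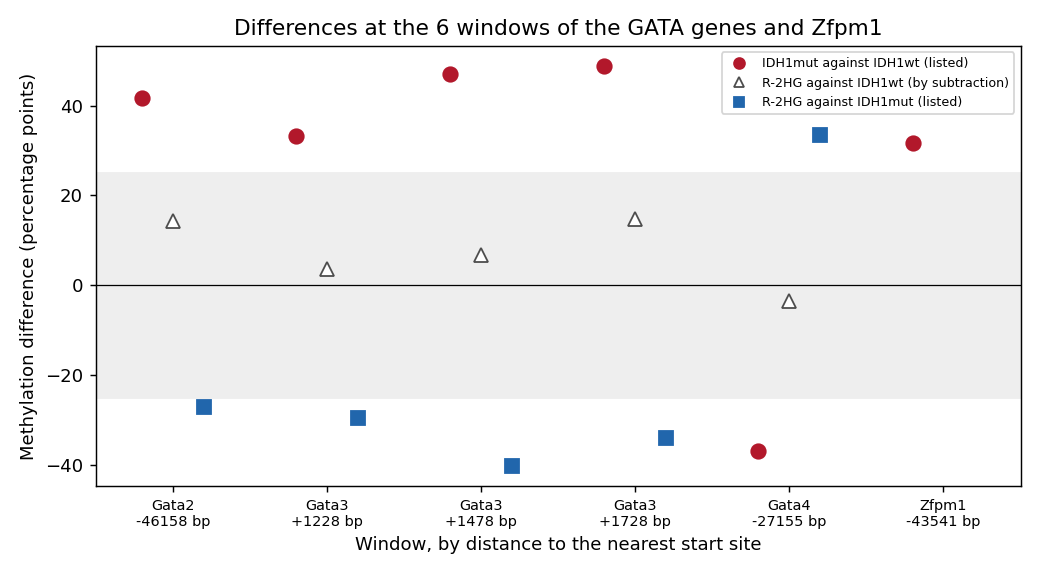
Methylation difference in percentage points at each of the 6 windows, named by gene and distance to the start site: filled circles are IDH1mut against IDH1wt, filled squares R-2HG against IDH1mut, open triangles R-2HG against IDH1wt by subtraction, and the grey band spans -25 to 25 points, where windows are not listed. The circles of Gata2, Gata3 and Zfpm1 lie at 31.7 points or above, that of Gata4 lies at -36.8 points, and all triangles fall within the band.

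**Figure D3:**
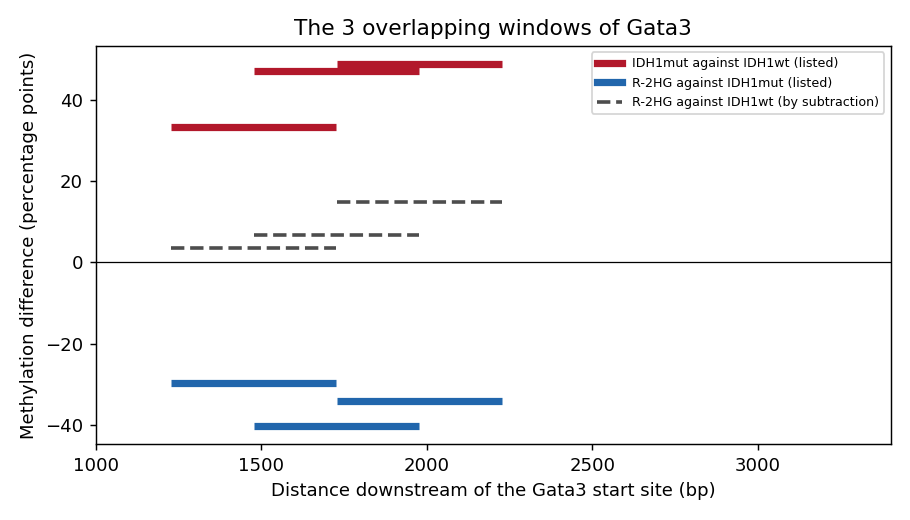
Methylation difference in percentage points along the distance downstream of the Gata3 start site in bp; each bar spans 1 window of 500 bp. IDH1mut against IDH1wt rises from 33.3 to 48.8 points away from the start site, R-2HG against IDH1mut is lowest in the middle window at -40.3 points, and R-2HG against IDH1wt by subtraction goes from 3.64 to 14.8 points.

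The rest of the family was looked up in the same tables. Of the 8 GATA and FOG genes, the 4 described were listed in at least 1 table, where 4.43% of all protein-coding RefSeq symbols were. These 4 were chosen because they were listed, so their number among the 8 is not read as an excess. Gata1, the erythroid and megakaryocyte factor, was in none of the 3 tables as the nearest gene. Neither were Gata5 and Gata6, which act mainly in endoderm and heart, nor Zfpm2, the FOG protein of heart and gonad. Absence from a table does not show that methylation there was equal.

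Of 80 other genes of GATA biology (family members, partner proteins and known target genes), 4 were listed for IDH1mut against IDH1wt, 5.00%, where 3.14% of the protein-coding RefSeq symbols had a listed window. There were 3 gains and 1 loss. Tcf3, which encodes the E protein that joins GATA factors in the TAL1 complex, gained 31.0 points 1649 bp downstream, as the authors' deposited table gives it. Gp1bb, a platelet glycoprotein gene and GATA1 target, had 47.0 points more at -2256 bp, upstream of its start site, per the authors' deposited table. In the authors' deposited table Mef2c, a partner of GATA4 in heart muscle, gained 33.1 points at 13970 bp. Smad1, a signal transducer of BMP receptors, was the single loss in the authors' deposited table (-26.1 points, 43118 bp downstream). The authors' deposited q was 0.0035 at Smad1, 1.88e-10 at Tcf3 and 0 at Gp1bb and Mef2c. Partner and family genes supplied 3 of 45 and target genes 1 of 35.

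For R-2HG against IDH1wt 0 of the 80 were listed, against 1.64% of all symbols. For R-2HG against IDH1mut 1 of 80 was listed, 1.25% against 1.40% of all symbols. It was Runx1t1, the ETO corepressor gene, with a gain of 27.7 points over a start site in the authors' deposited table. Over the 3 comparisons 5 of the 80 were listed, 6.25% against 4.43% of all symbols. These shares count genes with a listed window among all annotated symbols, many of which RRBS may not cover, so they are a description.

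None of 9 erythroid markers and none of 6 mast cell and megakaryocyte markers was listed in any table, and of 9 T cell markers 1 was, Zap70, a kinase of the T cell receptor. With 4.43% of all protein-coding symbols listed in at least 1 table, lists this short would hold 0 or 1 listed gene at the background share, so nothing is read from these counts. In 2 windows from 18797 bp downstream Zap70 gained 33.5 points for IDH1mut and 29.0 points for R-2HG, both against IDH1wt, in the authors' deposited tables. The R-2HG value is given with its deposited sign reversed. The 2 windows hold the same value in each table, as windows with the same CpGs would, and subtraction gave R-2HG minus IDH1mut -4.49 points. Gata3, the T cell factor among the 4 genes, was listed against IDH1wt for IDH1mut and not for R-2HG, and the comparisons share the IDH1wt libraries.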

How the data were processed

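RRBS libraries of mouse DNA, 6 in 3 groups of 2, were used. Per the submitters' processing notes the authors used Trim Galore, BSMAP, methylKit 0.9.1 and the build mm9; for settings, coverage filter, test and order of subtraction, nothing is given in the sources used. Per the file headers, the deposited tables give a window, a p-value and q-value, a methylation difference (a signed score in percentage points) and the distance to the nearest start site. Rows repeated for 2 transcripts were counted once.

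The sign order was found from the sum of the 3 differences: with the table of IDH1wt and R-2HG turned, the residual was 0 at the 3 windows in all tables, and 0 of 705 windows in exactly 2 tables left 25 points or more (457, 633 and 320 under the other orders). The reversal of all directions cannot be settled. Where 2 tables list a window, the remaining difference is a subtraction. The sign order and the joining of windows were tested on simulated data. No test between groups was made, because no value per library was used; depth is unknown. Named genes are the 4 members and any listed gene of the pathway and marker lists. Members and lists were chosen with earlier results of these data known. Of the symbols listed per comparison, 819 of 881, 425 of 452 and 352 of 369 were in RefSeq GRCm38.p6; this table gave names, gene order and start regions. Python 3.11.15 and pandas 2.3.3 were used. Alternatives tried were larger differences, a smaller q, distance limits, joined windows and other sign orders.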

Additional observations from a re-analysis of the deposited data

How the results depend on the processing

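For IDH1mut against IDH1wt the 6 windows stayed 6 at 30 points, at a q under 0.001 and within 50 kb. The limits on q and distance could not lower the count, since each window had a q of 0 and lay within 50 kb. The 6 windows became 4 at 35 points or when joined to separate regions. In promoters there were 0, against 18.1% of all listed windows. For R-2HG against IDH1mut the 5 windows became 3 at 30 points and 1 at 35 points. They became 3 when overlapping windows or windows within 1000 bp were joined, since the 3 Gata3 windows form 1 region. The count in promoters was 0, against 19.1% of all windows listed for R-2HG against IDH1mut. For R-2HG against IDH1wt the count was 0, which none of these alternatives could raise. The third difference was under 25 points at 5 windows in the sign order used. It was so by construction at 5 with the table of R-2HG and IDH1wt left at its deposited sign. That table lists none of them, so this shows nothing about stability. The third difference was under 25 points at 0 under either order that turns the table of R-2HG and IDH1mut, because sizes then add. On autosomes 0 of 684 windows were left over in the sign order used. These windows are part of the full set that left 0, so this could not come out otherwise. The other GATA pathway genes stayed 5 within 50 kb and were 4 at a q under 0.001, without Smad1. No paired analysis was possible because the tables give comparisons of groups and no value per library; for the same reason no library could be left out. Depth limits cannot be given.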

Other observations

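Gata2, Gata4 and Zfpm1 had a few other listed windows within 1 Mb, and Gata3 had none. On chromosome 14, 107251 bp from the Gata4 window, lay a window of Fdft1, the squalene synthase gene. Against IDH1wt it gained 50.4 points for IDH1mut and 30.2 points for R-2HG in the authors' deposited tables, the latter with its deposited sign reversed. An overlapping window was listed with similar values. The Gata4 window itself was a loss for IDH1mut, so neighbouring loci went in opposite directions. Sox7, an endothelial and endoderm factor gene 669001 bp from the Gata4 window, was a loss of -29.1 points for IDH1mut against IDH1wt at -1293 bp of its start site and a gain of 32.8 points for R-2HG against IDH1mut in the authors' deposited tables. Subtraction gave R-2HG minus IDH1wt 3.76 points at Sox7.

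On chromosome 8, 284751 bp from the Zfpm1 window, Piezo1, a mechanically gated channel gene, gained 29.7 points for IDH1mut against IDH1wt in 1 window and was lower in R-2HG than in IDH1mut by a difference of -33.3 points in the same window, in the authors' deposited tables. Subtraction gave R-2HG minus IDH1wt -3.54 points there. An overlapping Piezo1 window, 284501 bp from that of Zfpm1, was listed only for R-2HG against IDH1mut, at -27.0 points in the authors' deposited table. Other windows within 1 Mb of Zfpm1 went in both directions. For IDH1mut against IDH1wt the authors' deposited table gave -29.6 points in 2 windows nearest to Foxl1, a forkhead factor gene, and -25.1 and 28.1 points in separate windows nearest to 1700018B08Rik. For R-2HG against IDH1wt the authors' deposited table, with its sign reversed, gave 35.1 points in another window nearest to 1700018B08Rik and -31.3 points at Zcchc14. Near the Gata2 window the closest other listed windows lay 854251 bp away, at 4933427D06Rik, and were losses of -25.7 points for IDH1mut in the authors' deposited table.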
